A study of Homo sapiens with 4 samples.

Results

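The nuclear genes of respiratory complexes II, III and IV and of ATP synthase, with the cytochrome c gene CYCS, were examined in HCT116 cells given the compound 7A or its vehicle DMSO for 24 h. HCT116 is an established colon cancer cell line, and the series title describes 7A as derived from neratinib, an inhibitor of the ERBB receptor kinases, and names apoptosis through p53 as the question. The members are 41 named genes (4 of complex II, 9 of complex III, 11 of complex IV, 16 of ATP synthase and CYCS), each matched by Ensembl identifier to 1 of the 20263 genes in the deposited table, and all 41 passed the filter on low counts. There were 2 libraries of 7A cells and 2 of DMSO cells, from 1 cell line under the same culture conditions. The dose of 7A was not given in the sources used here. Nothing in the labels says that the replicates were separate cultures, so the p-values speak only of the spread among these 4 libraries, and that spread may be technical.

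These complexes make up the later part of oxidative phosphorylation in the inner mitochondrial membrane. Complex II oxidises succinate, a step it shares with the tricarboxylic acid cycle, and passes electrons to ubiquinone. Complex III hands them to cytochrome c and complex IV to oxygen, while protons are pumped, and ATP synthase uses the proton gradient to make ATP. Complex II is encoded wholly in the nucleus, whereas the other 3 also hold subunits encoded in mitochondrial DNA.

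Library totals were 49924044 and 61605005 counts with 7A, against 31120459 and 29769568 with DMSO. The share of counts on mitochondrial genes was 3.04% and 4.07% with 7A, against 6.59% and 7.73% with DMSO. Of 8 colon epithelial markers, 6 were above 1 CPM (counts per 1000000 counts) in every library, led by KRT8, and VIL1 and LGALS4 were at or near 0. The 8 summed to 6900 and 7240 CPM with 7A, against 4120 and 3670 CPM with DMSO. KRT8, KRT18, EPCAM and KRT19 rose by 1.14 ± 0.14, 1.09 ± 0.13, 0.58 ± 0.12 and 0.47 ± 0.14. CDH1 (-0.23 ± 0.14) and CDX2 (-0.34 ± 0.18) were lower in both 7A libraries and did not pass (edgeR adjusted p 0.198 and 0.147). With library totals alone EPCAM and KRT19 lost their call, and CDH1 and CDX2 passed as lower. The summed level moved with the members, and its part in their rise was not tested. The summed level of 6 leukocyte markers was 1.08 and 1.30 CPM with 7A, against 1.76 and 1.16 CPM with DMSO. Of 6 fibroblast markers, COL1A1 alone exceeded 1 CPM, at 33.69 and 38.59 CPM with 7A, against 57.64 and 54.72 CPM with DMSO (-0.64 ± 0.14; edgeR adjusted p 0.0103), and COL1A2, DCN and LUM had no count. The summed level of 4 endothelial markers was 0.281 and 0.308 CPM with 7A, against 1.44 and 1.32 CPM with DMSO. Levels in CPM, here and below, are scaled by the trimmed mean of M values (TMM). Changes are given on the log2 scale, 7A over DMSO, ± standard error. The words rose and fell are kept for genes with an adjusted p under 0.05 in edgeR's quasi-likelihood test. Fewer cells and less RNA per cell cannot be told apart in bulk libraries.

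Of the 41 genes, 30 rose with 7A and 0 fell, and the direction of the list held under every scaling tried. In the same fit 23.9% of all 14026 tested genes rose and 24.6% fell. The median change of the 41 genes was 0.62, beside -0.03 over all tested genes. The 2 groups of libraries did not overlap for 36 of the 41 genes, with 7A higher in each, against 38.2% of all tested genes. Only 4 of the rises were above 2-fold (ATP5MC1, CYC1, ATP5MF and CYCS), and at least 2-fold rises made up 7.11% of all tested genes. Together the 41 genes took 0.848% and 0.843% of all counts with 7A, against 0.690% and 0.641% with DMSO.

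The count of rises depended on the scaling and on 1 DMSO library. With library totals alone 17 rose and 0 fell, at a background of 13.9%, and the median of all tested genes moved by -0.27, to -0.29. The members' median was then 0.35, which is 0.65 above that of all genes, as it was with TMM. Upper-quartile scaling gave 25 rises and 0 falls, at a background of 19.8%. Without DMSO replicate 2, 18 rose, at a background of 13.5%. Leaving out each library in turn kept 17 of the 30 calls throughout, and 13 genes rose in all 19 alternatives. Those were SDHB, UQCRQ, UQCR10, UQCR11, CYC1, CYCS, COX5A, ATP5F1E, ATP5MC1, ATP5MC2, ATP5MF, ATP5MG and ATP5IF1, each called higher by the test its alternative used. The share of all tested genes that kept a call in this way was not computed, so neither count has a background. GENCODE names pseudogenes for 28 of the 41 genes, and annotated exons of 15 overlap those of another gene in the table, 10 of them on the opposite strand. How reads shared between such genes were assigned was not given in the sources used here, and 8 of the 41 genes have neither.

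**Figure D1:**
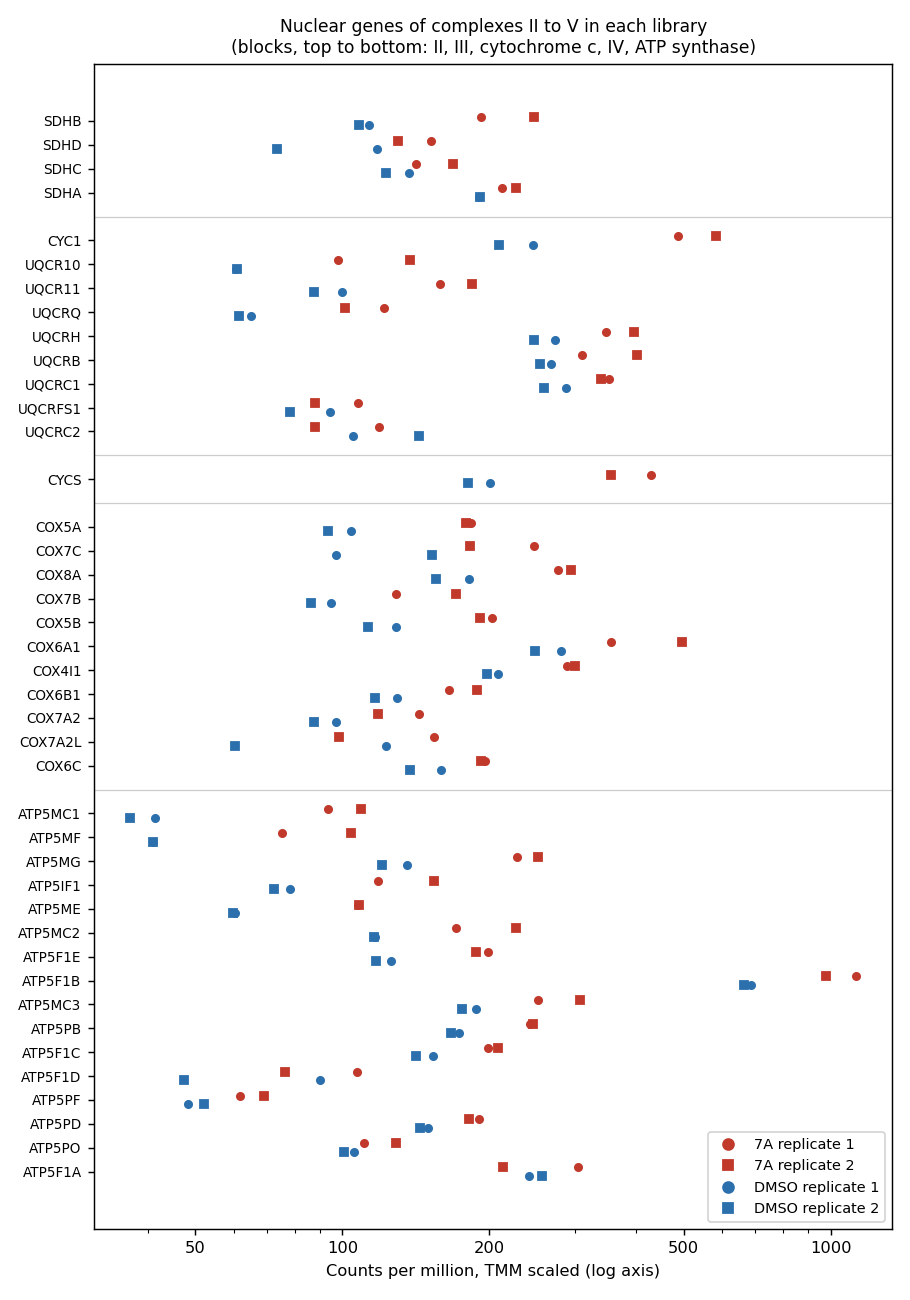
Level of each of the 41 genes in each library, in TMM-scaled CPM on a log axis, with 7A in red and DMSO in blue (circles, replicate 1; squares, replicate 2). Genes are blocked by complex and ordered by change; 7A and DMSO libraries did not overlap for 36 of them, and SDHD, COX7A2L, COX7C and ATP5F1D have DMSO libraries that lie far apart.

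Promoters of 5 members are printed to show what sequence lies before genes that moved together. They belong to the member with the largest rise (ATP5MC1), the complex II gene that rose (SDHB), cytochrome c (CYCS), and 1 gene each of ATP synthase (ATP5ME) and complex IV (COX5B), the last pair chosen for holding more than 1 of the motifs searched. Each is the stretch of 250 bases before the RefSeq start on GRCh38.p14, 5′ to 3′ on the gene's strand. Capitals mark motif matches that lie wholly within it.
ATP5MC1: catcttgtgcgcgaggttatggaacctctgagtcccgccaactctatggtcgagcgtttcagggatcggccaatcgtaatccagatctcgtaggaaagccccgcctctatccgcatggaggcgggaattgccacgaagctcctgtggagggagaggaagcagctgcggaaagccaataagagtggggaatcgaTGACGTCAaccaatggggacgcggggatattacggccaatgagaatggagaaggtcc
SDHB: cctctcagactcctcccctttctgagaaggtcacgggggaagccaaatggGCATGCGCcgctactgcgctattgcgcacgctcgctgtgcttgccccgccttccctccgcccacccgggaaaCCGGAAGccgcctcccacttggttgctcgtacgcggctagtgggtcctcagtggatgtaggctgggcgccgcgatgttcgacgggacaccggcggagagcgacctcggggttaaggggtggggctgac
CYCS: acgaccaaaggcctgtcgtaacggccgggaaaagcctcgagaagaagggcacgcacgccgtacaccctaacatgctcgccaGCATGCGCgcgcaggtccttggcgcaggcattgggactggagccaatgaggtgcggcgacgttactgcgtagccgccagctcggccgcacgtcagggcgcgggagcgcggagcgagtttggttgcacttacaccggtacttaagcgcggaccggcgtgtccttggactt
ATP5ME: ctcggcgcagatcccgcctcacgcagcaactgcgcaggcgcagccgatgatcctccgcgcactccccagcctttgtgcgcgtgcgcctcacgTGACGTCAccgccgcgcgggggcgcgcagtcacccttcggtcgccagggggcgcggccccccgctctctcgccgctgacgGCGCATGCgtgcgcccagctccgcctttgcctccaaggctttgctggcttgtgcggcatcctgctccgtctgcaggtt
COX5B: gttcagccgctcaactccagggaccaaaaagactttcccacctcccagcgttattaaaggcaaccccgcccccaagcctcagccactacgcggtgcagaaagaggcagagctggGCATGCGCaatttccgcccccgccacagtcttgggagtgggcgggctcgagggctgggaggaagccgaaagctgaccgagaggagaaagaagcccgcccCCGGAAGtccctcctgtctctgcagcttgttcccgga
These lie at chr17:48892537-48892786, plus strand; chr1:17054033-17054282, minus strand; chr7:25125261-25125510, minus strand; chr4:674277-674526, minus strand; and chr2:97645812-97646061, plus strand.

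A window of 300 bases, 250 before the start and 50 after it, was available for 33 of the 41 genes, and 4 motifs were searched in it on both strands. GCATGCGC, the core of the site bound by NRF1, a factor known for driving nuclear respiratory genes, was found in 9 of the 33 (27.3%), against 6.03% of 11111 tested genes with a window. CCGGAAG, the core bound by ETS factors such as GABPA, was in 15 (45.5%), against 21.2% of tested genes. The cyclic AMP response element TGACGTCA was in 3 (ATP5MC1, ATP5ME and SDHB; 9.09% against 3.69%) and AAGATGGCG, the YY1 core, in 3 (SDHB, UQCRC1 and ATP5PF; 9.09% against 4.37%). The SDHB matches to TGACGTCA and AAGATGGCG, and an ATP5ME match to CCGGAAG, do not lie wholly within the printed bases and are not marked there. Over all 35116 windows of that length the shares were 3.05%, 10.3%, 1.85% and 1.75% in the same order. The ATP5MC1 element lies 57 bases before the start, the CYCS NRF1 core 169 bases before it, and the COX5B NRF1 and ETS cores 136 and 37 bases before it. In members that rose the NRF1 core was present in 7 of 24 windows and the ETS core in 12, and in members that were not called in 2 and 3 of 9. A match to these letters is a description of the sequence and does not show that a factor bound.

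In complex II 1 of 4 genes rose (25.0%), a share near the 23.9% of all tested genes, with a median change of 0.41. SDHB (ENSG00000117118, chromosome 1, 17018722 to 17054170, GRCh38), the iron-sulfur subunit that relays electrons from the flavin, stood at 192.0 and 246.7 CPM with 7A, against 113.5 and 108.4 CPM with DMSO. Both 7A libraries lay well above both DMSO libraries, and SDHB rose by 0.98 ± 0.15 (edgeR adjusted p 0.00233). SDHA, the flavoprotein that oxidises succinate, read 211.8 and 227.2 CPM with 7A, against 190.5 and 191.3 CPM with DMSO (0.20 ± 0.12; edgeR adjusted p 0.18). SDHC, a membrane anchor, read 141.5 and 168.5 CPM with 7A, against 136.7 and 122.9 CPM with DMSO (0.26 ± 0.14; edgeR adjusted p 0.161). Neither group pair overlapped, but neither difference passed.

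SDHD, the other membrane anchor, read 151.6 and 130.3 CPM with 7A, against 118.0 and 73.33 CPM with DMSO. The DMSO libraries lay further apart than the 7A libraries, and the change of 0.56 ± 0.24 did not pass (edgeR adjusted p 0.108). Without DMSO replicate 1 it was 0.95 (edgeR adjusted p 0.0133). Within a library, SDHB took 47.5% and 52.1% of the counts on SDHA and SDHB with 7A, against 37.3% and 36.2% with DMSO, a share that does not depend on scaling. The groups did not overlap, and an exact two-sided permutation test of 2 against 2 libraries gave p = 0.333, the smallest it can give. After a correction for GC and merged exon length, SDHA (0.37) and SDHC (0.90) also passed, giving 3 of 4, whereas with the median protein-coding transcript length in its place only SDHB did. The merged exons of SDHC span 14160 bases and its median protein-coding transcript 460.

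In complex III 7 of 9 genes rose, with a median of 0.51. CYC1 (ENSG00000179091, chromosome 8, 144095027 to 144097525), the cytochrome c1 that hands electrons to cytochrome c, stood at 486.7 and 582.0 CPM with 7A, against 245.7 and 209.6 CPM with DMSO. Every 7A value was close to or above 2 times every DMSO value, and CYC1 rose by 1.23 ± 0.15 (edgeR adjusted p 0.00115). Small accessory subunits came next. UQCR10 stood at 98.06 and 137.6 CPM with 7A, against 60.48 and 60.82 CPM with DMSO (0.96 ± 0.18; edgeR adjusted p 0.00531). For UQCR11 the values were 158.8 and 184.5 CPM with 7A, against 99.65 and 87.60 CPM with DMSO (0.87 ± 0.14; edgeR adjusted p 0.00267). For UQCRQ they were 121.5 and 101.2 CPM with 7A, against 64.91 and 61.31 CPM with DMSO (0.82 ± 0.14; edgeR adjusted p 0.0038). None of these 3 accessory genes had overlapping groups, and the DMSO libraries were close together.

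The remaining rises in complex III were smaller and less steady. UQCRH, the acidic hinge protein between cytochromes c1 and c, stood at 346.3 and 396.2 CPM with 7A, against 273.1 and 247.3 CPM with DMSO (0.51 ± 0.13; edgeR adjusted p 0.015). Its call was lost without DMSO replicate 2 (adjusted p by edgeR 0.11) and without 7A replicate 2 (0.0601). UQCRB, which helps form the quinone site, rose by 0.44 ± 0.15 and lost its call without DMSO replicate 1 or 2 or 7A replicate 2 (adjusted p by edgeR 0.116, 0.176 and 0.155). UQCRC1, a core protein, rose by 0.34 ± 0.12 (edgeR adjusted p 0.0489) and lost its call without any single library (edgeR adjusted p 0.0798 to 0.281).

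The other core protein and the Rieske protein did not move beyond their spread. UQCRC2 read 119.1 and 87.92 CPM with 7A, against 105.1 and 143.5 CPM with DMSO. Its groups overlapped, and it was the only one of the 41 genes with a negative change (-0.26 ± 0.21; edgeR adjusted p 0.337). UQCRFS1, the Rieske iron-sulfur protein, read 107.4 and 87.83 CPM with 7A, against 94.22 and 78.02 CPM with DMSO (0.18 ± 0.16; edgeR adjusted p 0.375).

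CYCS (ENSG00000172115, chromosome 7, 25120091 to 25125361), the soluble carrier between complexes III and IV that also activates caspases once released into the cytosol, stood at 429.2 and 355.8 CPM with 7A, against 200.4 and 180.7 CPM with DMSO. The 7A values were about 2-fold higher, and CYCS rose by 1.04 ± 0.14 (edgeR adjusted p 0.00156). The call held in every alternative, at 1.21 after the correction for GC and merged exon length. GENCODE names 40 pseudogenes of CYCS, so its counts depend on how reads shared with copies were assigned.

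In complex IV 9 of 11 genes rose, with a median of 0.69 and the narrowest range of the 4 complexes, 0.39 to 0.87. COX5A (ENSG00000178741, chromosome 15, 74919791 to 74938168), a matrix-facing subunit, stood at 183.1 and 179.3 CPM with 7A, against 104.4 and 93.38 CPM with DMSO. Replicates lay close together in both groups, and COX5A rose by 0.87 ± 0.12 (edgeR adjusted p 0.00185). COX8A stood at 276.6 and 293.3 CPM with 7A, against 181.5 and 155.4 CPM with DMSO (0.76 ± 0.13; edgeR adjusted p 0.00337). COX5B, the zinc-binding subunit whose promoter is printed above, stood at 202.5 and 191.3 CPM with 7A, against 128.8 and 112.6 CPM with DMSO (0.71 ± 0.13; edgeR adjusted p 0.00426). Both genes lost the call after the correction for GC and merged exon length (0.16 and 0.33; limma adjusted p 0.291 and 0.0633), and both kept it with the median transcript length.

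COX4I1, the large nuclear subunit through which ATP and ADP regulate the enzyme, stood at 288.4 and 298.9 CPM with 7A, against 208.7 and 197.4 CPM with DMSO. It rose by 0.53 ± 0.11 (edgeR adjusted p 0.00817), a call lost without DMSO replicate 2 (0.0725). COX7B rose by 0.73 ± 0.16 and was lost without DMSO replicate 2 (adjusted p by edgeR 0.0607). COX6A1 and COX6B1 rose by 0.69 ± 0.18 and 0.53 ± 0.13, and lost the call without DMSO replicate 2 (adjusted p by edgeR 0.0906 and 0.106) and without 7A replicate 2 (0.0649 and 0.055). COX7A2 rose by 0.51 ± 0.14, a call lost without DMSO replicate 1 or 2 or 7A replicate 1 (adjusted p by edgeR 0.0632, 0.147 and 0.068). COX6C rose by 0.39 ± 0.13 and lost its call without any single library (edgeR adjusted p 0.0671 to 0.252). Of the 9 calls in complex IV, only that of COX5A was present in all 19 alternatives.

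COX7C and COX7A2L were uneven between replicates. COX7C read 246.3 and 182.2 CPM with 7A, against 97.24 and 152.8 CPM with DMSO (0.78 ± 0.27; edgeR adjusted p 0.0668). Without DMSO replicate 2 it passed, at 1.14 (edgeR adjusted p 0.0115). COX7A2L, a relative of COX7A2 that links complexes III and IV into supercomplexes, read 153.7 and 98.40 CPM with 7A, against 122.7 and 60.20 CPM with DMSO. Replicate 1 was the higher one in each group, the groups overlapped, and the change of 0.46 ± 0.47 did not pass (edgeR adjusted p 0.469). Leaving out DMSO replicate 1 gave 1.07 (edgeR adjusted p 0.0348).

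**Figure D2:**
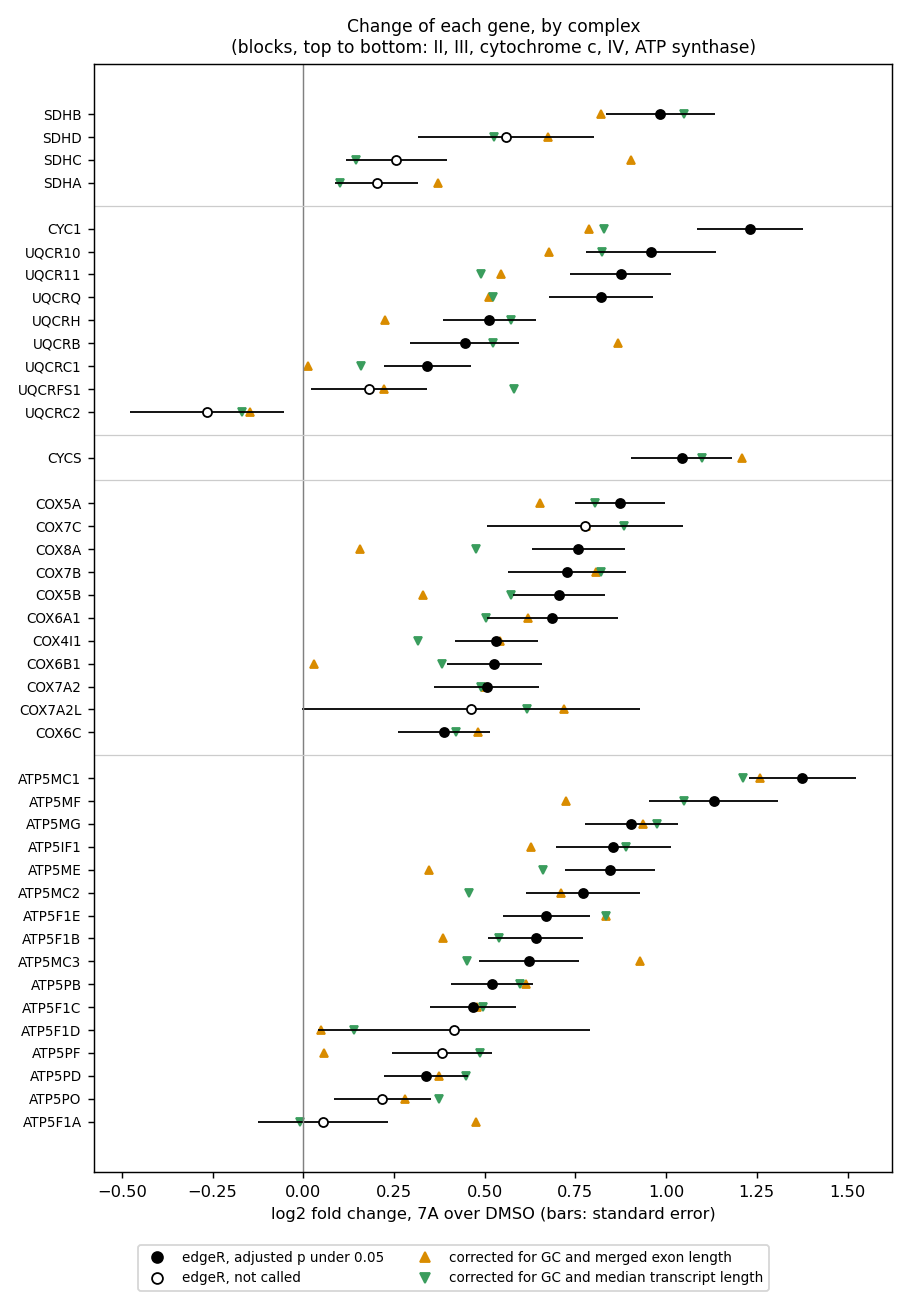
Change of each gene as log2 fold change of 7A over DMSO, with its standard error, blocked by complex; filled circles passed edgeR's test and open circles did not. Triangles give the change after correction for GC with merged exon length (orange) or median transcript length (green); the 2 forms lie furthest apart for SDHC (0.90 and 0.14), ATP5F1A (0.48 and -0.01) and ATP5MC3 (0.93 and 0.45).

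Of the 16 ATP synthase genes 12 rose, with a median of 0.63 and a range of 0.05 to 1.38. In the catalytic F1 head, the gene of the catalytic beta subunit, ATP5F1B, stood at 1128 and 976.3 CPM with 7A, against 685.4 and 664.7 CPM with DMSO, and rose by 0.64 ± 0.13 (edgeR adjusted p 0.00697). ATP5F1A, the gene of the alpha subunit that alternates with beta in the head, read 304.2 and 212.9 CPM with 7A, against 241.5 and 256.4 CPM with DMSO. Its 7A libraries lay on either side of the DMSO libraries, and the change of 0.05 ± 0.18 did not pass (edgeR adjusted p 0.821). As a share of the counts on these 2 genes, ATP5F1A took 21.2% and 17.9% with 7A, against 26.1% and 27.8% with DMSO. These shares did not overlap (exact two-sided permutation p = 0.333, the smallest possible).

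Among the central stalk genes, the epsilon gene ATP5F1E stood at 199.2 and 187.9 CPM with 7A, against 126.0 and 117.3 CPM with DMSO, and rose by 0.67 ± 0.12 (edgeR adjusted p 0.00415). The gamma gene ATP5F1C rose by 0.47 ± 0.12, a call lost without DMSO replicate 1 or 2 (adjusted p by edgeR 0.0569 and 0.119). The delta gene ATP5F1D read 107.0 and 76.19 CPM with 7A, against 89.89 and 47.41 CPM with DMSO. As with COX7A2L, replicate 1 was the higher in each group and the change of 0.42 ± 0.38 did not pass (edgeR adjusted p 0.41), whereas without DMSO replicate 1 it was 0.96 (edgeR adjusted p 0.0289).

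In the peripheral stalk, which holds the F1 head still, 2 of 4 genes rose. ATP5PB, its main rod, rose by 0.52 ± 0.11 (edgeR adjusted p 0.00869; 0.0726 without DMSO replicate 2). Its exons overlap by 350 bases those of WDR77 on the opposite strand, which read 49.4 and 41.3 CPM with 7A, against 8.38 and 8.60 CPM with DMSO. ATP5PD rose by 0.34 ± 0.12 and lost its call without any single library (edgeR adjusted p 0.0608 to 0.225). ATP5PO, which tethers the stalk to F1, read 110.7 and 128.9 CPM with 7A, against 105.4 and 100.6 CPM with DMSO (0.22 ± 0.13; edgeR adjusted p 0.206). ATP5PF, coupling factor 6, read 61.65 and 69.18 CPM with 7A, against 48.37 and 52.00 CPM with DMSO (0.38 ± 0.14; edgeR adjusted p 0.0542, and 0.0461 without 7A replicate 1). Its gene lies head to head with GABPA on chromosome 21, where the annotated spans overlap by 1104 bases. GABPA read 36.15 and 26.88 CPM with 7A, against 42.45 and 55.40 CPM with DMSO, and the counting's use of strand was not given in the sources used here.

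Subunit c, of which the rotating ring of the membrane sector is built, is made from 3 genes whose precursors differ and whose mature proteins are the same. ATP5MC1 (ENSG00000159199, chromosome 17, 48892765 to 48895871) stood at 93.58 and 109.2 CPM with 7A, against 41.34 and 36.82 CPM with DMSO. That was the largest rise of the 41 genes, 1.38 ± 0.15 (edgeR adjusted p 0.000945), and it was 1.26 and 1.21 after the 2 corrections for GC and length. ATP5MC2 stood at 170.8 and 226.9 CPM with 7A, against 116.9 and 116.0 CPM with DMSO (0.77 ± 0.16; edgeR adjusted p 0.00685). ATP5MC3 stood at 251.7 and 307.3 CPM with 7A, against 187.4 and 175.8 CPM with DMSO (0.62 ± 0.14; edgeR adjusted p 0.00907, and 0.0625 without DMSO replicate 2).

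Within each library ATP5MC1 supplied 18.1% and 17.0% of subunit c counts with 7A, against 12% and 11.2% with DMSO. For ATP5MC2 the shares were 33.1% and 35.3% with 7A, against 33.8% and 35.3% with DMSO. For ATP5MC3 they were 48.8% and 47.8% with 7A, against 54.2% and 53.5% with DMSO. The ATP5MC1 share was thus higher and the ATP5MC3 share lower in both 7A libraries, and the ATP5MC2 shares overlapped. The exact two-sided permutation test gave p = 0.333 for ATP5MC1 and ATP5MC3, the smallest it allows. These are shares of counts, not of molecules, since the transcripts differ in length.

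**Figure D3:**
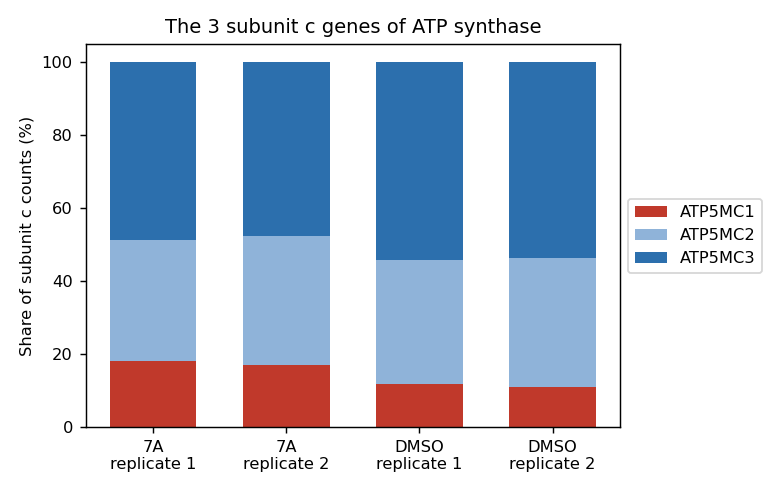
Share of the counts on ATP5MC1, ATP5MC2 and ATP5MC3 in each library, in percent. ATP5MC1 supplied 18.1% and 17.0% with 7A, against 12% and 11.2% with DMSO.

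The small membrane subunits e, f and g, which support the dimers that shape the cristae, all rose. ATP5MF (subunit f) stood at 75.18 and 104.0 CPM with 7A, against 40.99 and 40.86 CPM with DMSO (1.13 ± 0.18; edgeR adjusted p 0.00269). ATP5MG (subunit g) stood at 227.6 and 251.7 CPM with 7A, against 135.6 and 120.6 CPM with DMSO (0.90 ± 0.13; edgeR adjusted p 0.00183). ATP5ME (subunit e), the promoter of which is printed above, stood at 107.8 and 108.1 CPM with 7A, against 60.39 and 59.71 CPM with DMSO (0.85 ± 0.12; edgeR adjusted p 0.00203). Its replicates agreed to within 1 CPM in each group, and its call was lost after the correction for GC and merged exon length (0.35; limma adjusted p 0.0509). ATP5MF shares exons with PTCD1 on the same strand, which read 26.9 and 25.9 CPM with 7A, against 29.3 and 26.8 CPM with DMSO.

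ATP5IF1, the inhibitor that binds F1 and blocks ATP hydrolysis when the gradient collapses, stood at 118.4 and 153.9 CPM with 7A, against 78.19 and 72.45 CPM with DMSO. It rose by 0.85 ± 0.16 (edgeR adjusted p 0.0048). Relative to the beta subunit gene it did not shift clearly, with 9.49% and 13.6% of the counts on ATP5IF1 and ATP5F1B with 7A, against 10.2% and 9.83% with DMSO, where the groups overlap (exact two-sided permutation p = 1).

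The complexes were then set side by side by the sum of their nuclear transcripts. Complex II summed to 696.9 and 772.7 CPM with 7A, against 558.7 and 495.9 CPM with DMSO, a ratio of group means of 1.39. For complex III the sums were 2099 and 2317 CPM with 7A, against 1498 and 1400 CPM with DMSO (ratio 1.52). Complex IV summed to 2338 and 2410 CPM with 7A, against 1605 and 1448 CPM with DMSO (ratio 1.56). ATP synthase summed to 3588 and 3548 CPM with 7A, against 2434 and 2313 CPM with DMSO (ratio 1.5). As shares of all counts, without TMM scaling, the ratios were smaller, at 1.16, 1.26, 1.29 and 1.25 in the same order. In each complex both 7A libraries lay above both DMSO libraries by either measure. No difference between complexes was tested, since genes of a complex are not replicates.

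Of the 6 mitochondrially encoded partners 5 fell and 0 rose, with a median change of -0.98, and with library totals alone 6 fell, at a background of 35.2% lower. MT-CYB, the cytochrome b of complex III, stood at 599.1 and 735.8 CPM with 7A, against 1574 and 2069 CPM with DMSO, and fell by 1.45 on the log2 scale (edgeR adjusted p 0.00144). MT-ATP8 and MT-ATP6, the 2 mitochondrial subunits of ATP synthase, whose reading frames overlap on 1 transcript, fell by 1.62 and 1.11 (edgeR adjusted p 0.000774 and 0.00169). MT-CO2 and MT-CO3 of complex IV fell by 0.81 and 0.85 (edgeR adjusted p 0.013 and 0.011). The MT-CO2 and MT-CO3 calls were lost without DMSO replicate 2 (0.0687 and 0.0584) and without 7A replicate 1 (0.0738 and 0.0656). MT-CO1, with 15610 and 22260 CPM with 7A, against 22490 and 25680 CPM with DMSO, did not pass (-0.35 ± 0.22; edgeR adjusted p 0.215).

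The ratio of nuclear to mitochondrial counts was higher with 7A in each of the 3 complexes that have both, whatever the scaling. In complex III it was 3.50 and 3.15 with 7A, against 0.952 and 0.677 with DMSO. In ATP synthase it was 5.98 and 4.81 with 7A, against 1.59 and 1.35 with DMSO. In complex IV it was 0.0978 and 0.0720 with 7A, against 0.0419 and 0.0325 with DMSO. None of the 3 pairs overlapped, and the exact two-sided permutation p was 0.333 in each, the smallest possible. The share of all counts on mitochondrial genes, given above, includes these same partner genes, so it is not a separate measure of their falls. What lay behind the mitochondrial falls was not tested.

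**Figure D4:**
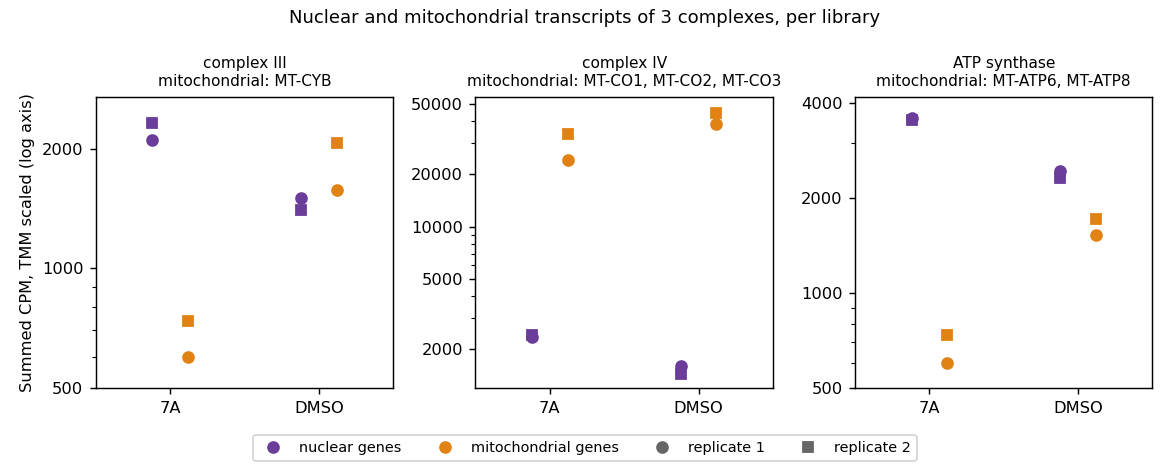
Summed CPM of nuclear genes (purple) and of mitochondrially encoded genes (orange) of complexes III, IV and ATP synthase in each library, on log axes that differ between panels. In every panel the nuclear sum is higher and the mitochondrial sum lower in both 7A libraries than in both DMSO libraries.

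Further nuclear subunits and tissue isoforms were then read from a fixed list of 13 genes, of which 7 were tested, 4 rose and 2 fell (2 and 2 with library totals alone). Of all tested genes 23.9% rose and 24.6% fell, or 13.9% and 35.2% with library totals alone. The share of the 7 that fell was thus near or below that of all tested genes. ATP5MD, a small ATP synthase subunit needed for dimers, stood at 183.0 and 150.6 CPM with 7A, against 82.32 and 79.30 CPM with DMSO (1.05 ± 0.14; edgeR adjusted p 0.00157). Another small ATP synthase subunit gene, ATP5MPL, rose by 0.64 ± 0.17, and NDUFA4, now counted as part of complex IV, by 0.50 ± 0.14. These 2 calls were lost without DMSO replicate 2 (adjusted p by edgeR 0.128 and 0.134) and without 7A replicate 1 (0.0705 and 0.0592), and that of NDUFA4 also without DMSO replicate 1 (0.0663). UQCRHL, a near-identical copy of UQCRH, rose by 1.08 ± 0.24 (lost without DMSO replicate 2 or 7A replicate 2; adjusted p by edgeR 0.0586 and 0.057), and it held at most 1.98% of the counts on the pair.

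The isoforms known from muscle, lung and testis had few counts or none. COX4I2 and COX7B2 had no count in any library, which allows up to 3 counts, or 0.0649 and 0.0543 CPM with 7A and 0.088 and 0.0918 CPM with DMSO. COX6A2 and COX8C had 2 counts in 1 library each. COX7A1, the muscle partner of COX7A2, had 0 and 3 counts with 7A, against 10 and 13 counts with DMSO, and COX6B2, the testis form of COX6B1, had 85 and 172 counts with 7A, against 173 and 150 counts with DMSO. Both passed as lower (edgeR adjusted p 0.0238 and 0.0291), COX7A1 on very few counts. COX7A1 was lost without DMSO replicate 1 or 7A replicate 1 (adjusted p by edgeR 0.0627 and 0.0921), and COX6B2 without DMSO replicate 1 or 2 or 7A replicate 1 (0.108, 0.0699 and 0.0965).

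Of 41 assembly factors of these complexes 22 rose (53.7%, against 23.9% of all tested genes) and 1 fell, with a median of 0.46. With library totals alone 9 rose and 1 fell, at a background of 13.9% higher. HIGD1A, a hypoxia-inducible protein of complex IV and supercomplexes, stood at 116.3 and 112.6 CPM with 7A, against 36.41 and 34.83 CPM with DMSO (1.68 ± 0.13; edgeR adjusted p 0.000556). For complex III, UQCC2 and UQCC3, which act on newly made cytochrome b, rose by 1.48 ± 0.16 and 0.96 ± 0.15, and BCS1L, which inserts the Rieske protein, by 1.40 ± 0.17 (30.99 and 31.01 CPM with 7A, against 13.08 and 10.44 CPM with DMSO). LYRM7, the chaperone of that same Rieske protein, fell by 0.77 (edgeR adjusted p 0.0338), a call lost without DMSO replicate 1 or 2 or 7A replicate 1 (0.135, 0.0709 and 0.125). Of 26 complex IV factors 14 rose and 0 fell (5 and 0 with library totals alone), with COA4, COX20 and COA3 at 1.28 ± 0.15, 0.90 ± 0.15 and 0.94 ± 0.18.

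Complex II had 1 of 4 factors higher, SDHAF3, which protects the iron-sulfur subunit during assembly (0.81 ± 0.17; edgeR adjusted p 0.00793, and 0.0583 without DMSO replicate 2). The complex II share, 25.0%, was near the 23.9% of all tested genes that rose. For ATP synthase 3 of 5 rose (60.0%), but with library totals alone 0 of 5 rose, at a background of 13.9%. TMEM242, which helps build the c ring, rose by 0.62 ± 0.14 (edgeR adjusted p 0.0107; lost without DMSO replicate 1 or 2, 0.0745 and 0.0588). ATPAF2, the chaperone of the alpha subunit, rose by 0.64 ± 0.18 (lost without DMSO replicate 1 or 2 or 7A replicate 2; adjusted p by edgeR 0.0519, 0.131 and 0.0946). FMC1 rose by 0.72 ± 0.23 (lost without DMSO replicate 2 or 7A replicate 1 or 2; adjusted p by edgeR 0.192, 0.128 and 0.0703).

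The tricarboxylic acid cycle, which meets the chain at complex II, had 9 of 13 genes higher and 0 lower, with a median of 0.62 (6 and 1 with library totals alone). MDH2, the malate dehydrogenase, stood at 493.2 and 608.0 CPM with 7A, against 259.5 and 245.7 CPM with DMSO (1.12 ± 0.14; edgeR adjusted p 0.00132). OGDH and IDH3G rose by 0.98 ± 0.13 and 1.05 ± 0.15. Of 37 nuclear complex I subunits 25 rose and 0 fell, with a median of 0.70 (17 and 0 with library totals alone). For both lists the share of all tested genes that rose was 23.9%, or 13.9% with library totals alone.

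Of 12 regulators of nuclear respiratory genes, 11 were tested, 2 rose and 1 fell, with a median of 0.07 (2 and 2 with library totals alone). The share that rose, 18.2%, was below the 23.9% of all tested genes, of which 24.6% fell. With library totals alone 13.9% of all tested genes rose and 35.2% fell. PPRC1, a growth-responsive coactivator of the PGC-1 family, stood at 80.24 and 96.05 CPM with 7A, against 41.01 and 39.73 CPM with DMSO (1.13 ± 0.15; edgeR adjusted p 0.00144). PERM1, known from muscle, rose by 1.64 ± 0.21 at 5.80 and 6.01 CPM with 7A, against 1.82 and 1.96 CPM with DMSO (edgeR adjusted p 0.00141). GABPA, the DNA-binding part of an ETS factor at respiratory promoters, fell by 0.63 (edgeR adjusted p 0.0396), a call lost without DMSO replicate 2 or 7A replicate 2 (0.223 and 0.191). NRF1 itself (0.21 ± 0.14; edgeR adjusted p 0.252) and the mitochondrial DNA factor TFAM (0.07 ± 0.14; 0.687) did not pass. PPARGC1A, the PGC-1α gene, had 0 counts in 3 libraries and 2 counts in DMSO replicate 2.

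Transcript length and GC content moved with the change over the whole table, so their values are given here. The 41 genes have short transcripts, with a median of 614 bases over the genes' median protein-coding transcript, against 1543 for all tested genes. Over 20 bins of tested genes by this length, the median change was 0.15 in the shortest and -0.68 in the longest. Among the 41 genes Spearman's rho between change and this length was -0.11 and with merged exon length -0.47, against -0.22 and -0.28 over all tested genes; genes of 1 library share its depth and composition, and no p is given. Median GC content was 47.5% in the 41 genes, against 49.4% over all tested genes, with a rho to the change of 0.15 among the 41 and 0.24 over all tested genes. Correcting each library for GC and merged exon length left 25 of the 41 higher and 0 lower (background 25.0%, median 0.55). UQCRC1, UQCRH, COX5B, COX6A1, COX6B1, COX8A, ATP5F1B and ATP5ME lost their call in it, and SDHA, SDHC and COX7C gained one. The same correction with median transcript length, chosen after the data were seen, left 31 higher and 0 lower (background 24.1%, median 0.52). UQCRC1 and UQCRB lost their call in that form, and UQCRFS1, COX7C and ATP5PF gained one.

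**Figure D5:**
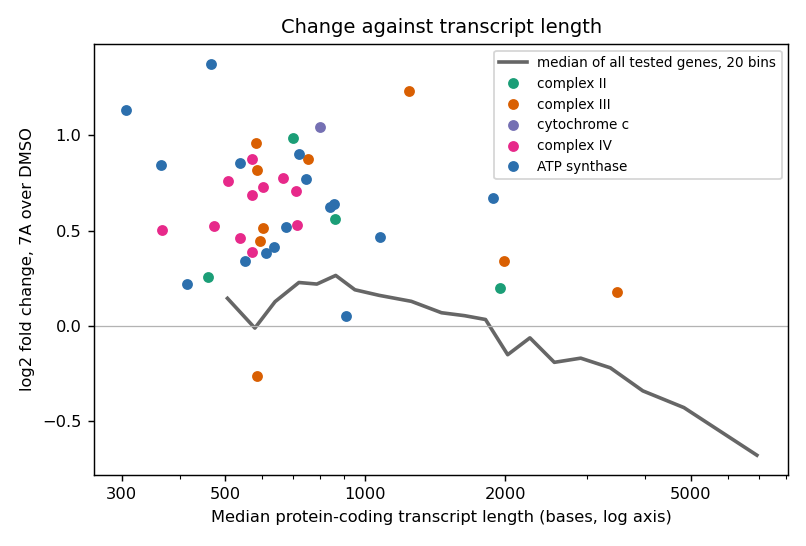
Change of the 41 genes (dots, coloured by complex) against the median length of their protein-coding transcripts, on a log axis, with the median of all tested genes in 20 length bins as a grey line. All but 3 of the 41 dots lie above 0.20, and the grey line runs between 0.27 in the bin at 865 bases and -0.68 in the longest bin.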

How the data were processed

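RNA was extracted from HCT116 cells after 24 h with 7A or DMSO and made into mRNA libraries, per the labels' protocols. The authors deposited raw counts per gene for 4 libraries (20263 genes, of which 3736 had no count). The submitters' processing notes name hg38, mm10 and GRCm38, and every identifier is human. Which aligner, counter and annotation were used was not given in the sources used here. Among genes with 1 to 20 counts, 63.9% to 64.9% of counts were even, so both mates of a read pair may have been counted, and halved counts were tried as an alternative.

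Identifiers were joined to GENCODE 29 on GRCh38 for symbols, positions and lengths, and to RefSeq on GRCh38.p14 for promoters. The tests used edgeR 4.0.16 (R 4.3.3) with filterByExpr (minimum count 10), TMM factors of 0.897 to 1.10, the robust quasi-likelihood test, and Benjamini-Hochberg adjustment over 14026 genes at a threshold of 0.05. The biological coefficient of variation was 17.7%. Corrections for GC and length (a spline with 5 degrees of freedom per library) were tested with limma 3.58.1. Sums and shares were compared by an exact two-sided permutation test. The steps were also run on simulated data in which far fewer genes were changed than passed here. The outcome of that run is not given and is not used as support. Replicates of a group differed beyond counting noise (a chi-square of 72.4 per degree of freedom for 7A and of 33.1 for DMSO). Floors of 3 counts cover counting error only, and library totals limit the precision of low genes alone.

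Members and gene lists were chosen with earlier results of these data known. The text names all 41 members and, for each further list, up to 4 tested genes of lowest adjusted p, with 1 or more in each direction where one passed. The nuclear complex I subunits are an exception and are given by counts and median alone. Of the genes so chosen, 1 is not reported here. It also names every mitochondrially encoded partner and cell type markers by summed level. COX isoforms at or near 0, NRF1, TFAM, PPARGC1A and genes that overlap members were added after their values were seen. Alternatives covered tests, scalings, filters, corrections, depth, threshold, the replicate block and leaving out each library.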

Additional observations from a re-analysis of the deposited data

How the results depend on the processing

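Over 41 genes and 19 alternatives (779 values), 649 kept their direction and their side of the threshold, 99 lost the call, 22 gained one and 9 changed sign without being called. None of the 41 genes was called lower in any alternative run. Of 14026 tested genes 6795 changed, against 3860 at a threshold of 0.01, and leaving out each library gave 3864 to 5673. Rises among the 41 numbered 30, against 17 with library totals alone and 18 to 27 leaving out each library, the fewest without DMSO replicate 2. Complex II had 1 rise, against 2 with the replicate block, 3 with the GC and length correction (also with the block), 3 with length alone, and 1 to 2 leaving out each library. Complex III had 7, against 4 with library totals alone, 4 at 0.01, and 4 to 6 leaving out each library. Complex IV had 9 of 11, against 4 with library totals alone (13.9% of all tested genes rose), 3 with length alone (23.4%, so that 3 of 11 is near the background), 4 with the block and the correction together (21.3%), 5 at 0.01 (14.6%), and 4 to 8 leaving out each library. ATP synthase had 12, against 7 with library totals alone and 8 to 12 leaving out each library. The members' median of 0.62 became 0.51 with upper-quartile scaling, 0.35 with library totals alone, 0.54 with a filter of 5 CPM, 0.55 with GC and length corrected (0.55 with the block), 0.42 with length alone, 0.52 with median transcript length (chosen after seeing the data), and 0.58 to 0.73 leaving out each library. With library totals alone the uncalled SDHA (-0.066), SDHC (-0.013), UQCRFS1 (-0.084), ATP5F1A (-0.21) and ATP5PO (-0.051) changed sign. ATP5F1A was also negative with upper-quartile scaling (-0.059), a filter of 5 CPM (-0.031), median transcript length (-0.010) and without 7A replicate 1 (-0.20; 0.28 without 7A replicate 2). Where a call changed, the cause was not tested. Same-numbered libraries did not deviate together (r = -0.0503), so the numbers are not taken as pairs. With 2 libraries per group this r is the same for either number by construction, so it is a single check. With the replicate block 28 of the 41 genes rose and 6216 genes changed. SDHD (0.59, adjusted p by edgeR 0.0148) and COX7A2L (0.52, adjusted p by edgeR 0.0287) then gained a call. UQCRC1, UQCRB, COX6C and ATP5PD lost theirs (adjusted p by edgeR 0.0948, 0.0505, 0.0658 and 0.104). All 41 genes lay far above the floor of 3 counts.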
